A study of Drosophila melanogaster with 24 samples.

Results

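The germ plasm and the piRNA pathway were followed through 37 genes, listed by name from what is known of them, and 34 of these had a probe set of their own on the array. They were read among 18769 probe sets and 11981 named genes. A member was taken where a probe set carried its symbol alone, and the probe set with the highest mean Signal stood for a gene with several. The genes pgc and tral had no probe set in the annotation used here, and the probe set of cup was shared with a neighbouring gene. Of the 34, 32 had a median Signal of at least 75 over all arrays and were tested.

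Flies of the Raleigh base population had been selected for 25 generations on locomotor reactivity, the activity that follows a mechanical disturbance. Selection ran upwards in the High group (H) and downwards in the Low group (L), and parents of the Control group (C) were not selected, with 2 replicate lines for each. Total RNA came from pools of whole virgin flies, 3 to 7 days old, in 2 samples for each line and sex, so that each group had 4 female and 4 male arrays. No group carried a mutation, a transgene or a drug, and a line is a single selected population, so 2 lines stand for a selection regime. A p-value here is read against the spread of samples within these lines, not against that of the lines of a group. Signal is the array's linear measure of transcript abundance, and differences are given on the log2 scale.

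Germ plasm is the cytoplasm at the posterior pole of the egg that makes the germ cells of the next generation. Its RNAs and proteins are made in the nurse cells of the ovary, carried into the oocyte, anchored there and held silent until they are needed. The piRNA pathway silences transposons in the gonads: small RNAs bound by Argonaute proteins of the PIWI clade guide the cutting of transposon RNA in the nuage, a layer around the nurse cell nuclei, and the silencing of transposon genes in the nucleus. Both systems are best known in the ovary, and parts of each also act in the testis. In whole flies, fewer germ cells and less RNA per germ cell cannot be told apart.

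The arrays followed their labels. All 3 yolk protein genes rose in females, and all 15 accessory gland genes and 17 of 19 tested testis markers were lower in females. The 1 testis marker that was higher in females was twe, a germline phosphatase that also acts in the ovary, with a difference of 2.06. The median Signal of an array was 93.0 to 117.5 in females and 143.2 to 157.7 in males. Over all 11439 probe sets tested, the median female minus male difference was 0.19, and it was 0.25 after quantile normalization.

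The sexes differed far more than the selection groups. Of the 32 members tested, 27 were higher in females than in males (limma, adjusted p under 0.001), where 43.9% of all probe sets were called in this direction. Only exu and bgcn were lower in females, where 25.6% of all probe sets were called. The median difference over the 32 was 3.21. Signals of the 12 female and the 12 male arrays did not overlap for 25 of the 27 members higher in females, grk and squ being the exceptions. These 27 were picked by the call itself, and the share of all probe sets without overlap was not counted. Of the tested members, 9 had every male array under 75 and so passed the filter only through their female arrays. For these the filter itself favoured a call towards females. The calls of osk, orb, nos, bcd, exu and bgcn held in every alternative fit and without any single array or line. The plot of sex differences by role shows that every role except germline stem cell differentiation and mRNA transport lay wholly on the female side.

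**Figure D1:**
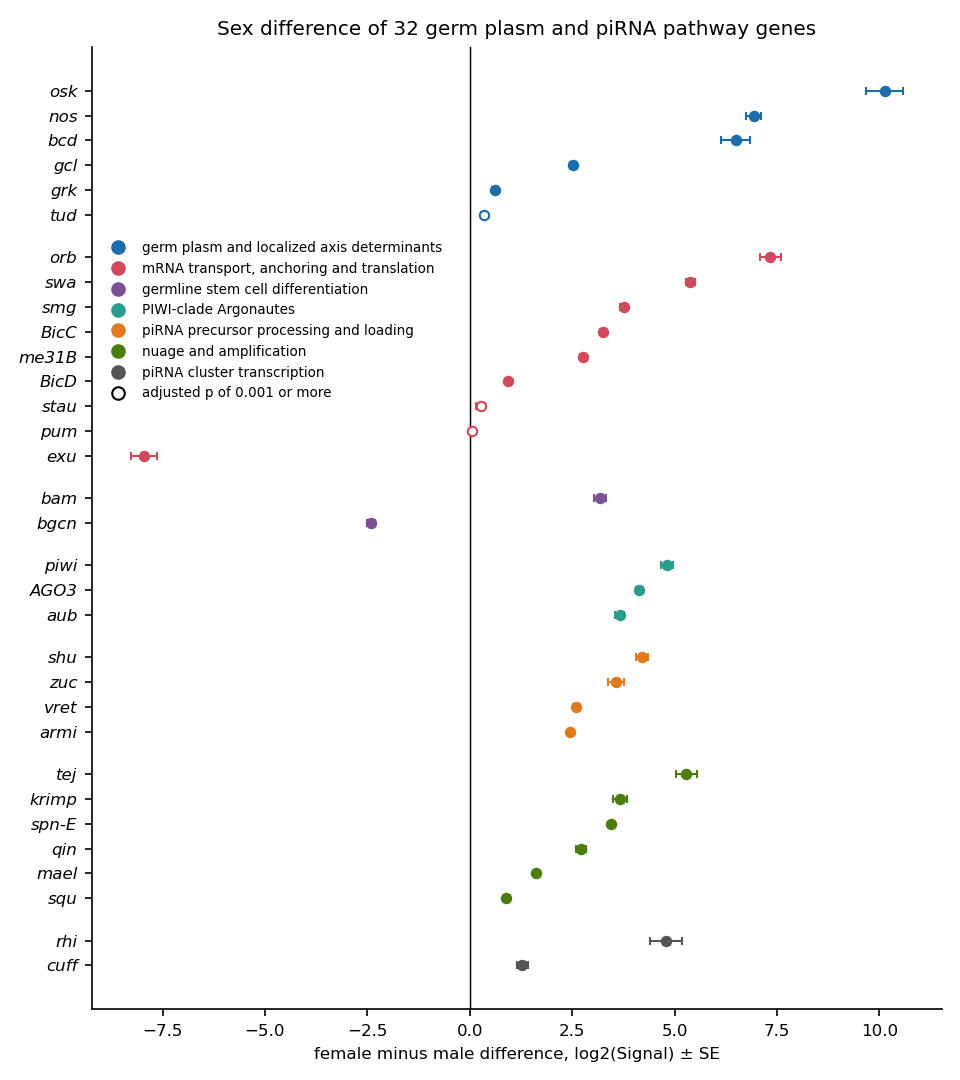
Female minus male difference of log2(Signal) with its standard error for the 32 members tested (x axis), grouped by role (colours), with open points where the adjusted p was 0.001 or more. The difference reaches 10.13 for osk on the female side and -7.95 for exu on the male side.

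Among the determinants of the germ plasm and the body axes, osk stood highest. Its protein, Oskar, starts the assembly of the germ plasm. The Signal of osk was 8177.4 to 9889.7 in females with a median of 8964, against 2.2 to 27.8 in males with a median of 10.3. All 12 male arrays were below 75, the filter level, and against that level the female Signal was at least 120-fold higher. The same bound is given below for the other members with every male array under 75. The fitted difference was 10.13 (SE 0.45, adjusted p = 1.28e-11), while the remaining osk probe sets gave 12.92 and 9.62.

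The gene nos encodes a translational repressor made at the posterior pole, and bcd encodes the anterior morphogen. Signal of nos was 1931.1 to 5887.7 in females (median 3991) and 19.9 to 57.7 in males (median 30.55), at least 52.9-fold higher in females, with a difference of 6.93 (SE 0.19). Signal of bcd was 555.4 to 1880.0 in females (median 1174) and 1.7 to 30.1 in males (median 14.75), at least 14.8-fold higher, with a difference of 6.49 (SE 0.36). Both were apart from every male array. The gene gcl, needed for the pole cells to form, was higher by 2.52 (SE 0.07), with 1380.5 to 2859.4 in females and 297.2 to 456.2 in males.

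The smallest differences of this role were those of grk and tud. The ligand Gurken, the product of grk, signals from the oocyte to the follicle cells, and its transcript was higher in females by 0.61 (SE 0.07). Its 596.6 to 851.7 in females overlapped the 360.1 to 606.6 in males. Tudor, the product of tud, is a scaffold of the germ plasm, and its difference of 0.35 (SE 0.08, adjusted p = 0.00133) missed the threshold. The helicase gene vas was below the filter, with 55.2 to 108.8 in females and 28 to 61.9 in males, and was not tested. A further probe set of vas also carries the symbol of another gene, wwk, and was not read.

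Of 9 members that carry, anchor or control the translation of mRNA, 6 were higher in females, where 43.9% of all probe sets were. The gene orb, which encodes a protein that binds the ends of maternal mRNAs and activates them, had a Signal of 2443.5 to 3955.9 in females (median 2949) and of 9.1 to 34.7 in males (median 23.5). That is at least 40.2-fold, and a difference of 7.33 (SE 0.26). The bcd anchoring factor swa followed with 5.38, at least 24.1-fold. The repressors smg, which binds nos mRNA, and BicC had 3.76 and 3.25, the helicase me31B of the masking complex 2.75, and BicD, an adaptor of the dynein motor, 0.94. BicD and me31B were well above 75 in both sexes.

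The members stau and pum did not pass. Staufen, the product of stau, binds double-stranded RNA and escorts osk and bcd mRNA. Its Signal was 355.5 to 1038.2 in females (median 619.1) and 347.2 to 890.7 in males (median 463.6), and the ranges overlapped over most of their length (difference 0.26, SE 0.11, adjusted p = 0.0433). Pumilio, the product of pum, is the RNA-binding partner of Nanos and is also used outside the germline. Its brighter probe set had 457.0 to 764.6 in females (median 564.8) and 445.4 to 730.9 in males (median 562.8), a difference of 0.05 (SE 0.06, adjusted p = 0.407) that was -0.08 after quantile normalization. The other probe set of pum told the sexes apart by 2.46 (adjusted p = 3.44e-15), at 683.6 to 1198.5 in females and 148.0 to 209.5 in males.

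The gene exu, whose product takes part in the transport of bcd mRNA, was the member with the largest difference towards males. Male and female germlines are known to make separate exu transcripts. The brighter probe set had 8.5 to 104.8 in females (median 34.2) and 6189.1 to 7924.3 in males (median 6816), a difference of -7.95 (SE 0.33, adjusted p = 5.11e-12). The other probe set was bright in both sexes, at 1439.4 to 4782.5 in females and 3042.2 to 3984.7 in males, with a difference of -0.25 (adjusted p = 0.0266). The annotation used here does not say which transcript each probe set reads. For exu as for pum the sex difference thus depended on the probe set, as the plot of Signal by array shows.

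**Figure D2:**
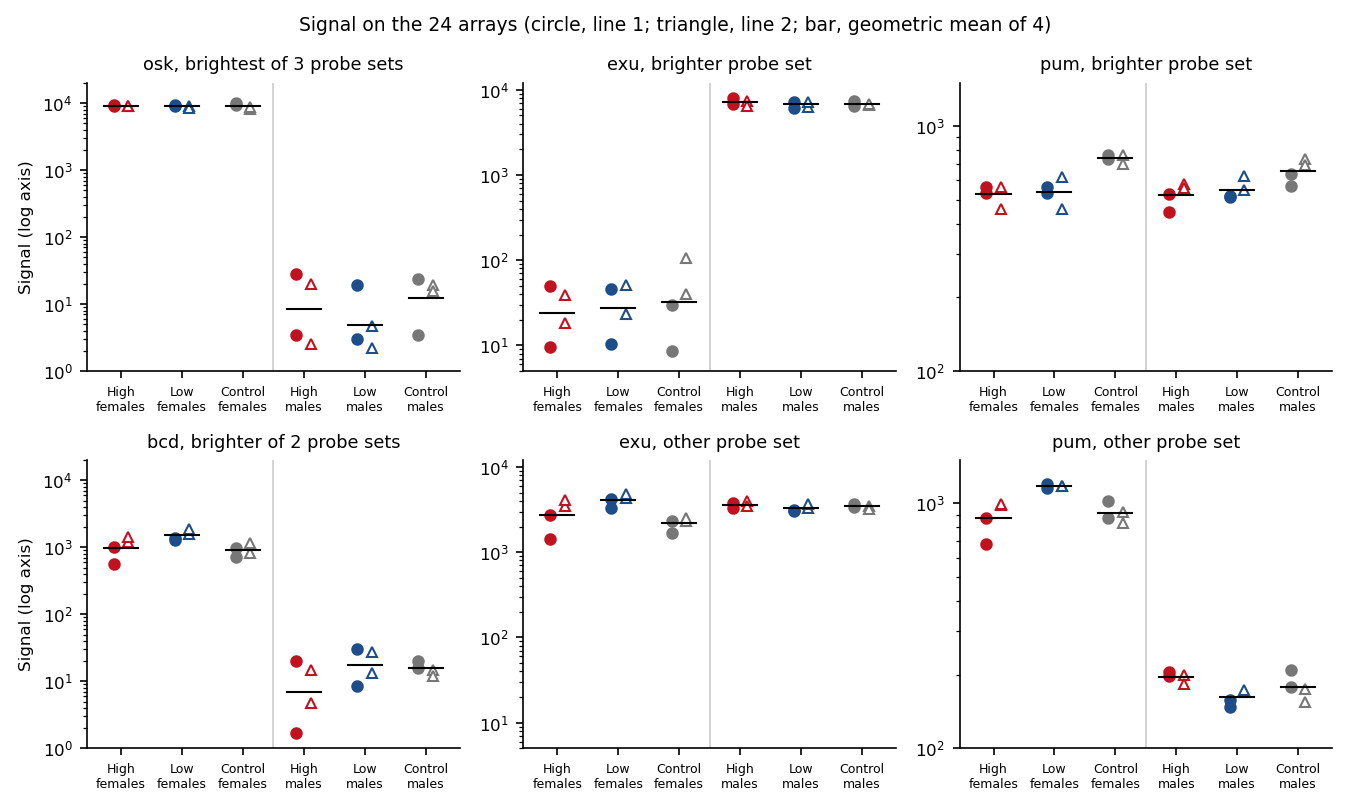
Signal (log axis) on each of the 24 arrays for osk, bcd and both probe sets of exu and pum, by selection group, females left and males right, with circles for line 1, triangles for line 2 and bars for the geometric mean of 4 arrays. Female arrays of osk lie between 8177.4 and 9889.7, while its male arrays lie at 27.8 or less, and the 2 probe sets of exu give opposite impressions of the female level.

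The pair of genes for germline stem cell differentiation split by sex. Bam and Bgcn work as partners that let the daughter of a germline stem cell differentiate in the ovary, and both are also needed in the male germline. Signal of bam was 172.0 to 545.4 in females (median 278.3) and 16.9 to 90.9 in males (median 35.85), higher in females by 3.18 (SE 0.14). Signal of bgcn was 35.4 to 97.5 in females (median 54.35) and 240.5 to 345.2 in males (median 314.5), lower in females by a difference of -2.42 (SE 0.10, adjusted p = 6.02e-12). The sexes did not overlap for either gene.

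All 15 tested members of the piRNA pathway were higher in females, where 43.9% of all probe sets were. The Argonautes, which carry the piRNAs, had differences of 4.81 (SE 0.15) for piwi, which acts in the nucleus, 4.13 (SE 0.09) for AGO3 and 3.66 (SE 0.10) for aub, the partners of the amplification cycle. Signal of piwi was 1195.8 to 1799.7 in females (median 1402) and 30.4 to 77.4 in males (median 52.3), and that of aub was 971.2 to 1405.3 in females (median 1060) and 54.1 to 123.4 in males (median 94.6). AGO3 had 904.3 to 1642.6 in females (median 1184) and 50 to 102.7 in males (median 71.95). No female array of the 3 Argonautes overlapped a male array.

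Precursor processing and loading was represented by shu, a co-chaperone, with a difference of 4.20 (at least 9.94-fold), zuc, the endonuclease that cuts the precursors, with 3.57 (at least 2.78-fold), the Tudor protein gene vret with 2.60 and the helicase gene armi with 2.44. Of these, armi was the one measured above 75 on all arrays of both sexes, at 677.7 to 1097.4 in females (median 950.1) and 136.5 to 196.0 in males (median 161.6). The gene fs(1)Yb, which works in the somatic cells of the ovary, was below the filter, with 46.0 to 99.8 in females and 10 to 63.9 in males.

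Of the nuage proteins, the Tudor protein genes tej, krimp and qin had differences of 5.29, 3.67 and 2.72, and the bound for tej, faint on every male array, was at least 5.24-fold. The helicase gene spn-E had 3.45, mael, needed for transcriptional silencing, 1.62, and squ, which encodes a partner of Aub, 0.89. Signal of squ overlapped between the sexes, at 436.2 to 748.2 in females and 252.1 to 507.1 in males. In the complex that marks piRNA clusters for transcription, rhi had 4.80 (SE 0.39), at least 5.92-fold, and cuff 1.29 (SE 0.13).

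For 9 members every male array was below 75, and a fitted difference of such a gene leans on faint male values. With 50 added to each Signal, all 27 members remained higher in females, and the differences of 6 became smaller by more than 1.5 times: bcd 4.16, bam 2.05, zuc 1.88, tej 2.81, rhi 2.82 and cuff 0.81.

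Other genes of the same systems went the same way for the most part. Of 22 other piRNA pathway genes tested, 19 were higher in females and 0 lower, where 43.9% and 25.6% of all probe sets were. The largest difference was 6.11, for BoYb, and papi had the lowest, -0.08. Of 32 other genes of the germ plasm and of oocyte mRNA, 26 were higher, among them otu (7.81) and gnu (7.46). Another 4 were lower in females, bol (-4.23), capu (-1.45), twin (-0.85) and Rbp9 (-0.48), and these were named after their values were seen. Boule, the product of bol, acts in male meiosis, and Rbp9 is also a neuronal RNA-binding protein.

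No member differed among the 6 lines at an adjusted p under 0.001, where 4.76% of all probe sets were called. Of the 32 members, 10 had an unadjusted p under 0.05, and 7 had an adjusted p under 0.05, where 28.1% of all probe sets did. No member had an interaction of line and sex (limma, 0.0437% of all probe sets), with 15 at an unadjusted p under 0.05. By its brightest probe set, no member's difference between High and Low itself differed between the sexes (limma, 0.551% of all probe sets), with 6 at an unadjusted p under 0.05. Leaving out the High line 2 male replicate 1 array brought krimp to a line effect, at an adjusted p of 0.00098.

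The smallest adjusted p for line belonged to stau, at 0.0063. Its females had 519.7, 475.0, 644.5 and 593.8 in the High group, 794.5, 948.5, 482.5 and 468.3 in the Low group and 851.6, 1038.2, 680.7 and 355.5 in the Control group, line 1 before line 2 here and below. Line 1 was above line 2 in the Low and the Control females, so the lines of a group disagreed. In males the High group had 482.5, 390.8, 444.8 and 395.1, the Low group 662.6, 890.7, 619.3 and 347.2, and the Control group 694.0, 716.3, 437.4 and 418.0, and there too line 1 was the higher in the Low and the Control group. The next were pum (0.0074), squ (0.011), bam (0.013), armi (0.014), BicC (0.021) and krimp (0.032).

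Between the selection groups of females, few members passed in the fit of log2(Signal), and most of those that did were highest in the Low group. Between High and Low females 3 members were lower in High, gcl, BicC and armi, and 0 higher (adjusted p under 0.05). Of all probe sets 14.5% were called in this contrast and 7.9% were lower in High, so 3 of 32 is near that background. Between High and Control females pum and armi were lower in High, where 6.27% of all probe sets were called. Between Low and Control females 5 members were higher in Low, gcl, me31B, spn-E, mael and squ, and pum was lower, where 18.7% of all probe sets were called and 8.79% were higher in Low. The 3 lower in High than in Low and the 5 higher in Low than in Control were all among the 27 members higher in females. Of the 5020 probe sets higher in females, 12.2% were called lower in High than in Low and 15.2% higher in Low than in Control. The contrasts share groups and are not independent of each other. Each of these calls was lost without at least 1 whole line. Each was also lost when the means of line and sex were taken as samples (adjusted p from 0.157 for spn-E to 0.467 for squ). With 50 added to each Signal, 9, 2 and 16 of 32 were called for High minus Low, High minus Control and Low minus Control. A factorial analysis of the linear Signal, the kind of model the study used, gave 16, 5 and 21. The shares of all probe sets called in these settings are not given here.

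**Figure D3:**
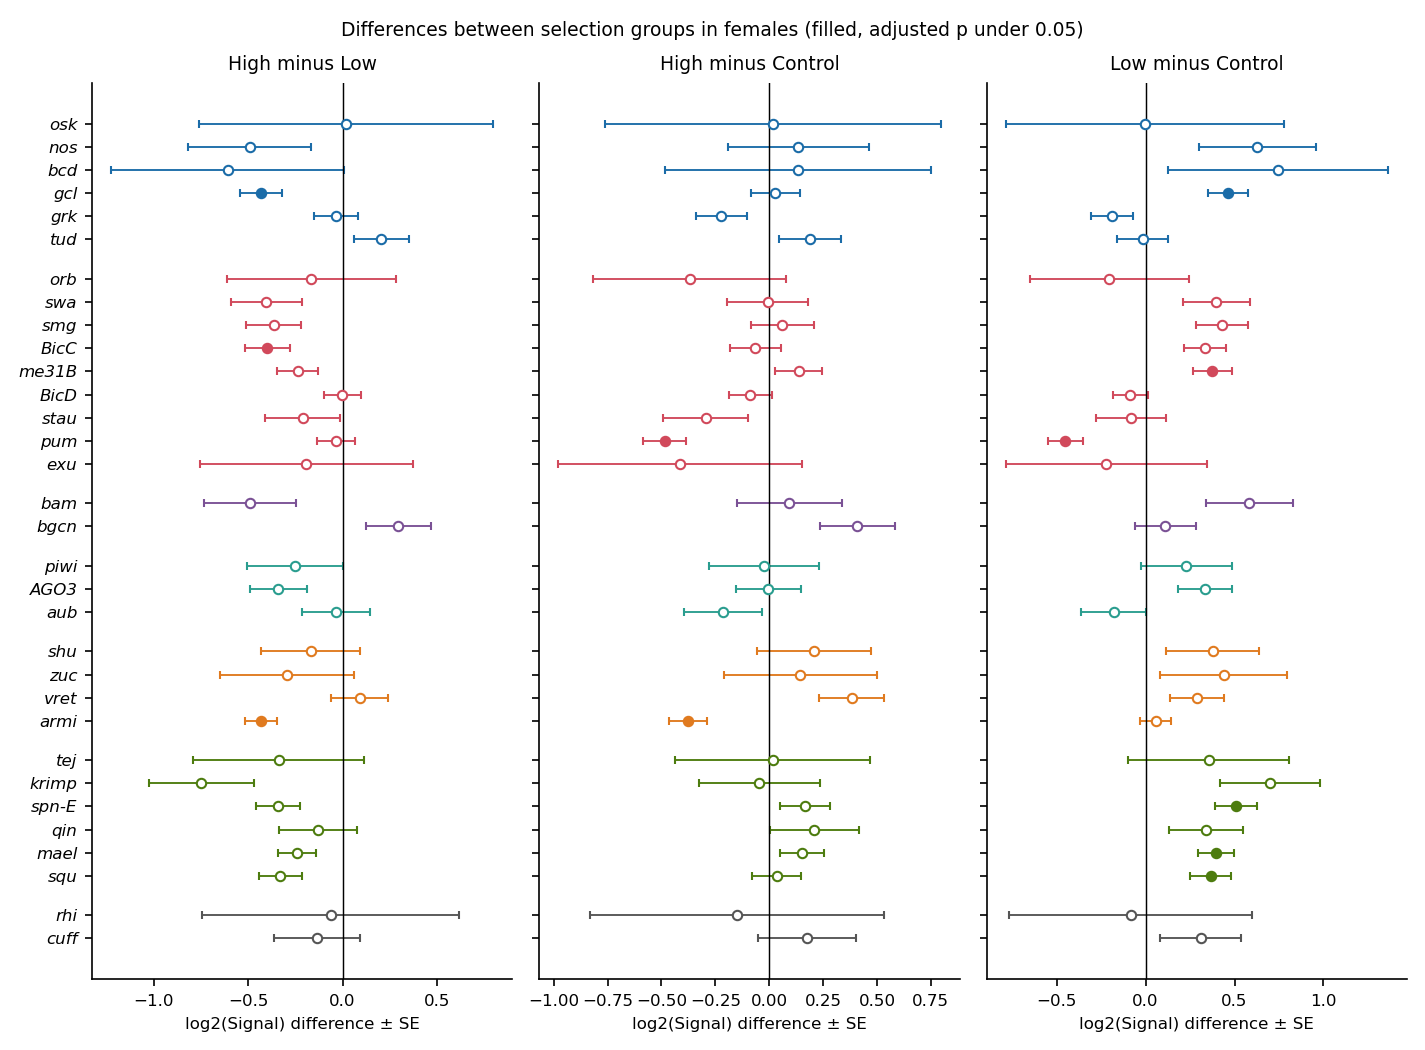
Differences of log2(Signal) with their standard errors between selection groups in females for the 32 members, grouped by role with the colours of the plot of sex differences, and filled points where the adjusted p was under 0.05. The long bars of osk, bcd and rhi come with male values under 75, since the fit pools the spread of both sexes.

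The germ plasm gene gcl had 1767.2, 1380.5, 1960.7 and 2618.6 in High females, 2552.8, 2085.7, 2726.9 and 2859.4 in Low females and 1747.8, 1857.7, 1727.0 and 2062.1 in Control females. All Low arrays were above all Control arrays, while the brightest High array lay within the Low range. It was lower in High than in Low by a difference of -0.43 (SE 0.11, adjusted p = 0.0206) and higher in Low than in Control by 0.46 (SE 0.11, adjusted p = 0.0126). The first call was lost without High line 1 replicate 2 (adjusted p = 0.0971), High line 2 replicate 1 (0.0923), Low line 1 replicate 1 (0.0891) or Low line 2 replicate 2 (0.0707), and the second without Low line 1 replicate 1 (0.0586) or Control line 2 replicate 1 (0.0527). Of whole lines, High line 1 (difference -0.16, adjusted p = 0.539) and Low line 2 (0.311) ended the first, and Low line 2 (0.242) and Control line 1 (0.0844) the second.

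The translational regulators BicC and me31B were also brightest in Low females. BicC had 2517.9, 1773.5, 2672.6 and 3016.2 in High females and 3098.1, 3158.7, 3344.4 and 3322.4 in Low females, so that the groups did not overlap (-0.40, SE 0.12, adjusted p = 0.0377). The call was lost without High line 1 replicate 2 (adjusted p = 0.162), High line 2 replicate 1 (0.125) or any 1 of the 4 Low arrays (up to 0.0938), and without High line 1 the difference was -0.19 (adjusted p = 0.441). Leaving out Low line 1, Low line 2 or Control line 2 ended it too (up to 0.206). For me31B the Low females had 9757.4, 9069.3, 9071.4 and 10823.8, all above the 6903.2, 7653.5, 7791.8 and 7454.5 of Control females (0.38, SE 0.11, adjusted p = 0.0282). The call was lost without Low line 1 replicate 1, Low line 2 replicate 2, Control line 1 replicate 1 or either array of Control line 2, with adjusted p up to 0.115, and without any 1 of the Low and Control lines, with adjusted p up to 0.151.

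The genes pum and armi stood apart from these. The brighter probe set of pum was highest in Control females, at 532.7, 563.7, 460.2 and 561.9 in High, 534.5, 565.9, 618.8 and 457.0 in Low and 764.6, 732.2, 702.6 and 760.2 in Control. Neither selected group overlapped the Control group. The differences were -0.49 for High minus Control (SE 0.10, adjusted p = 0.0105) and -0.45 for Low minus Control (SE 0.10, adjusted p = 0.00819), and no single array's absence changed either call. The first was lost without High line 2 (adjusted p = 0.0639) or Control line 1 (0.0637), with line as a random block (0.0674) and in a fit of female arrays alone (0.0655), and the second without Control line 1 (0.0615). In males the same differences were -0.32 and -0.25 and did not pass (adjusted p = 0.114 and 0.203). The other probe set of pum differed from this one, with a High minus Low difference of -0.43 in females (adjusted p = 0.00651) and a Low minus Control difference of 0.37 (adjusted p = 0.0122). The other probe set of exu likewise had -0.59 (adjusted p = 0.0292) and 0.90 (adjusted p = 0.0031). For the other probe set of pum the High minus Low difference also differed between the sexes (-0.71, adjusted p = 0.0268), where 0.551% of all probe sets were called.

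The helicase gene armi was lowest in High females, at 762.5, 718.4, 677.7 and 837.3, against 1042.0, 1097.4, 898.4 and 1004.5 in Low and 988.2, 990.1, 937.5 and 962.7 in Control females. High arrays did not overlap those of either other group. The differences were -0.43 for High minus Low (SE 0.09, adjusted p = 0.00501) and -0.38 for High minus Control (SE 0.09, adjusted p = 0.0198), and Low minus Control was 0.06. The call against Low held without any single array, but was lost without High line 1 (adjusted p = 0.0501) or Low line 1 (0.0533). The call against Control was lost without High line 1 replicate 2 (adjusted p = 0.0616), High line 2 replicate 1 (0.0707), Control line 1 replicate 2 (0.0599) or Control line 2 replicate 2 (0.0558), and without High line 1 or either Control line (up to 0.116).

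Of the nuage members, spn-E, mael and squ were brightest in Low females. Signal of spn-E was 816.5, 874.3, 889.2 and 993.0 in Low and 545.5, 659.3, 654.9 and 653.3 in Control females, without overlap (0.51, SE 0.12, adjusted p = 0.00974), and no single array changed the call. It was lost without Low line 2 (adjusted p = 0.0937) or Control line 1 (0.081). Signal of mael was 653.1, 578.4, 774.0 and 793.3 in Low and 489.5, 515.2, 527.6 and 582.5 in Control females, which overlapped at their edges (0.40, SE 0.10, adjusted p = 0.016). That of squ was 699.7, 561.3, 723.2 and 748.2 in Low and 437.4, 533.3, 563.7 and 585.9 in Control females, also with overlap (0.37, SE 0.11, adjusted p = 0.0379). The call of mael was lost without Low line 1 replicate 1, Low line 2 replicate 2, Control line 1 replicate 1 or Control line 2 replicate 1, with adjusted p up to 0.0653, and without Low line 2 the difference was 0.22 (adjusted p = 0.399) and without Control line 1 it was 0.32 (0.0956). That of squ was lost without Low line 1 replicate 1, Control line 1 replicate 1 or any 1 array of Low line 2 or Control line 2, with adjusted p up to 0.15, and without Control line 1 the difference was 0.24 (adjusted p = 0.314), without Low line 2 it was 0.25 (0.367) and without High line 2 it was 0.37 (0.0545).

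**Figure D4:**
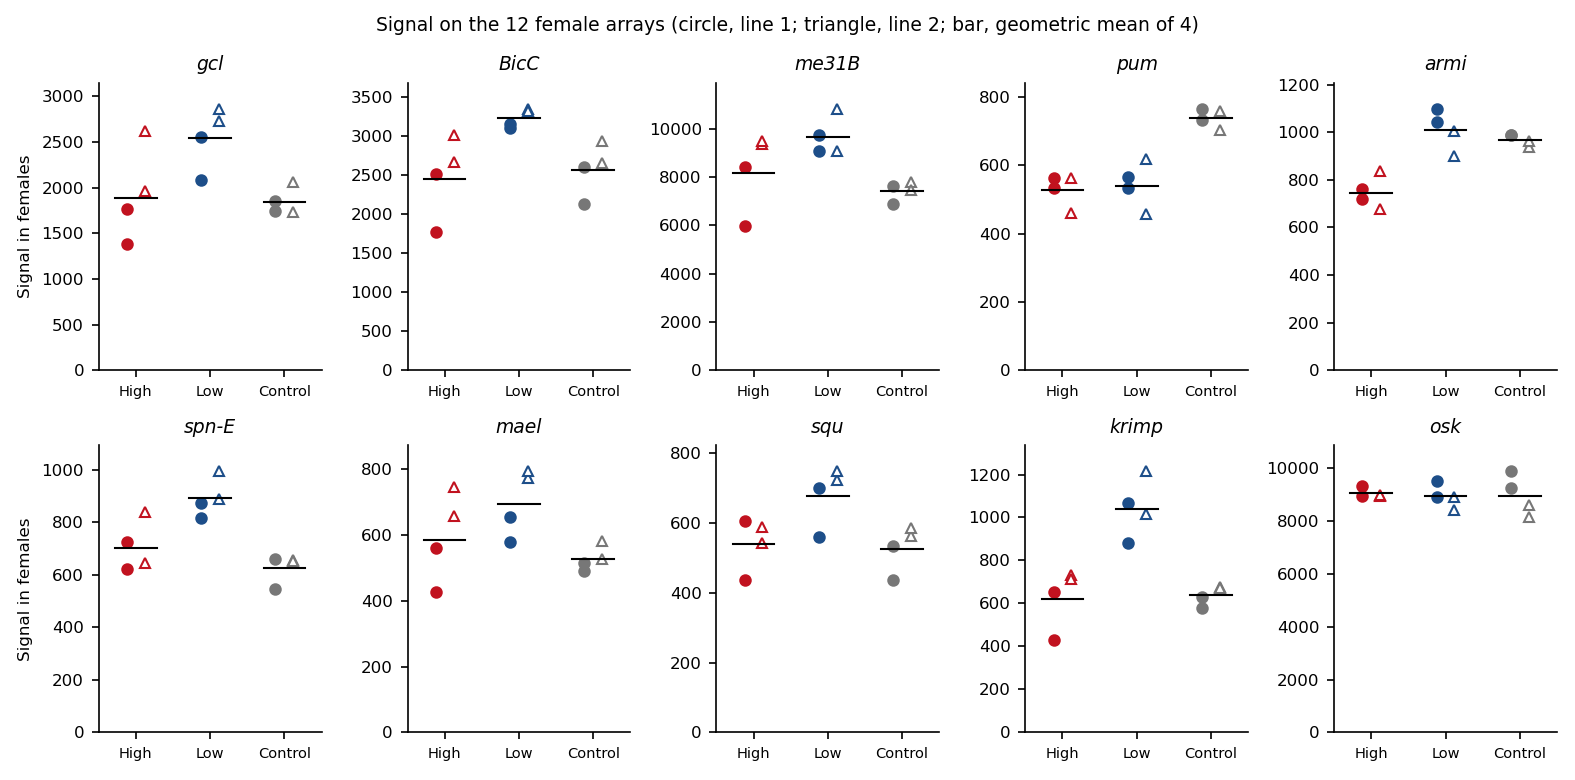
Signal (from 0) on the 12 female arrays by selection group for the 8 members called between selection groups in females and for krimp and osk, with circles for line 1, triangles for line 2 and bars for the geometric mean of 4 arrays. The 4 Low arrays of krimp lie between 881.6 and 1214.7, above all High and Control arrays, and osk stays between 8177.4 and 9889.7 throughout.

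The fit pools the spread of both sexes, so faint male values widen the errors of a female contrast. In the fit of the arrays of 1 sex alone, an alternative chosen after seeing the data, krimp, swa and armi were lower in High than in Low females (3 of 32, where 10.8% of all probe sets were called). Only orb was lower in High than in Control females (3.22% of all probe sets). Higher in Low than in Control females were krimp, swa, shu, spn-E and mael, and lower was pum (14.9% of all probe sets). Of the calls in the fit of both sexes, 1 of 3, 0 of 2 and 3 of 6 held in these contrasts. Those of gcl (adjusted p = 0.0742 and 0.0554), BicC (0.076), me31B (0.068) and squ (0.0911) were lost. So were those of pum (0.0655) and armi (0.0587) for High minus Control. At an unadjusted p under 0.05 were 14, 6 and 21 of 32 members. Krimp had 654.1, 430.2, 730.2 and 712.3 in High, 1068.6, 881.6, 1016.8 and 1214.7 in Low and 579.2, 632.1, 675.7 and 672.8 in Control females. Its Low arrays stood clear of both other groups, and in this fit the differences were -0.75 for High minus Low (SE 0.14, adjusted p = 0.0206) and 0.70 for Low minus Control (SE 0.14, adjusted p = 0.0227).

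Over the 27 members higher in females, 25 had a High minus Low difference below 0 in females, with a median of -0.29, and 21 had a Low minus Control difference above 0, with a median of 0.35. Both contrasts hold the Low group. The median High minus Control difference was 0.03. Over all probe sets tested the medians were -0.03, 0.00 and -0.02 for High minus Low, Low minus Control and High minus Control. The 5020 female-biased probe sets moved the same way, with medians of -0.14, 0.13 and 0.00. Of them 73.7% had a High minus Low difference below 0, and 27.2% had a Low minus Control difference below 0. When female arrays were centred on those probe sets, the median of all probe sets between High and Low moved to 0.12 and that of the 27 members to -0.15.

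A pair of arrays stood at the ends of the range. High line 1 replicate 2 was the lowest of the 12 female arrays for 17 of the 27 members, with a median deviation of -0.41 from the mean of the arrays. Low line 2 replicate 2 was the highest for 13, with a median deviation of 0.37, and Low line 2 replicate 1 the highest for 5, with 0.32. Without the first and second of these arrays, a step chosen after seeing the data, 23 of the 27 differences of High minus Low stayed below 0 with a median of -0.20, and 0 of 32 members were called (limma, 2 at an unadjusted p under 0.05). Without High line 1 altogether the median of the 27 was -0.10.

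Egg shell genes, DNA replication genes and markers of other tissues were read on the same female arrays. The summed Signal of 16 egg shell genes, made by the follicle cells, was 8386 on High line 1 replicate 2 and 92540 on Low line 2 replicate 2. Other arrays parted the egg shell genes from the members. Their median deviations were -0.744 and 0.192 on High line 2 replicate 2, and 0.884 and -0.043 on High line 2 replicate 1. Replication genes had 0.223 and -0.018 on these 2 arrays. By group the summed Signal of the egg shell genes was 8386 to 47460 in High, 58880 to 92540 in Low and 12870 to 54880 in Control females, so that all Low arrays were above the rest. For 14 DNA replication and early cell cycle genes it was 16340 to 25650 in High, 25130 to 29830 in Low and 19070 to 22620 in Control females. Of those lists, 1 of 6 tested egg shell genes and 3 of 14 replication genes were lower in High than in Low females, with medians of -0.82 and -0.54. Of all probe sets 7.9% were called lower in High than in Low females, and 18.7% were called between Low and Control females. Neuron, eye and muscle markers lay on the other side in females. Summed Signal of 5 neuron and eye markers was 1017 to 1371 in High, 965.5 to 1069 in Low and 1270 to 1338 in Control females, so that Low and Control females did not overlap. All 5 were below 0 for Low minus Control, with a median of -0.48 and 2 called lower, and all 5 above 0 for High minus Low, with a median of 0.29 and 0 called (limma, 1 at an unadjusted p under 0.05). Summed muscle markers overlapped among the groups, at 31000 to 68700 in High, 23340 to 59280 in Low and 52560 to 64770 in Control females. Of the 6 muscle genes all were below 0 for Low minus Control, with a median of -0.67 and 1 called lower, and all were above 0 for High minus Low, with a median of 0.36 and 0 called (0 at an unadjusted p under 0.05). The 3 yolk protein genes, made in the fat body and the follicle cells, were above 0 for Low minus Control (median 0.30) and below 0 for High minus Low (median -0.18), with 0 called in either (0 at an unadjusted p under 0.05). In males all 5 neuron and eye markers were also below 0 for Low minus Control (median -0.28, 1 called). All 5 were above 0 for High minus Low there (median 0.19, 0 called). Of the 6 muscle genes in males, 5 were above 0 for Low minus Control (median 0.09) and 5 for High minus Low (median 0.06), with 0 called. Of all probe sets 3.92% and 5.57% were called in these contrasts of males. The part of these tissues in the members' differences was not tested.

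**Figure D5:**
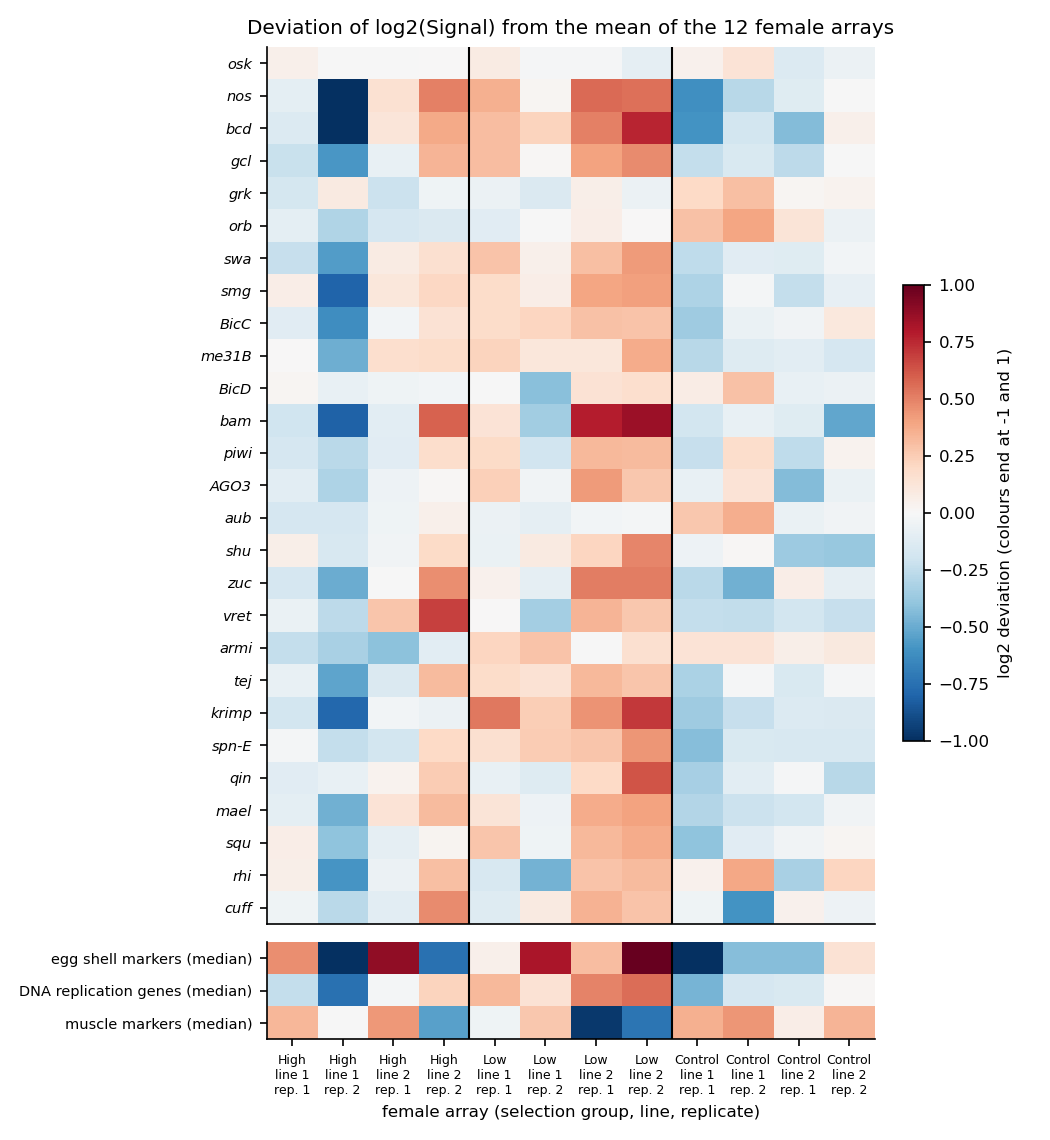
Deviation of log2(Signal) from the mean of the 12 female arrays for the 27 members higher in females (rows, top), and the median deviation of 3 marker lists (rows, bottom), with red above and blue below the mean; colours end at -1 and 1. High line 1 replicate 2 is blue in most rows (median -0.41) and Low line 2 replicate 2 red (median 0.37), while the row of osk is nearly white.

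Members did not follow these arrays to the same degree. The ratio of the highest to the lowest female array was 1.21 for osk, the smallest of the 27, and 3.38 for bcd, the largest, with a median of 1.85. The other probe sets of osk were flat as well, with 6971.2 to 10235.3 and 6110.0 to 7886.2. After osk the members closest to level were grk (1.43), aub (1.45) and piwi (1.51). Those with the widest range after bcd were bam (3.17), nos (3.05) and krimp (2.82). On High line 1 replicate 2 nos had 1931.1 and bcd 555.4, the lowest of their female arrays, while osk had 8955.3. The values used here hold no mark of saturated probe sets, so a ceiling on the Signal of osk was not tested.

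In males few members passed, and most that did were faint. Between High and Low males tej was higher and krimp lower in High (5.57% of all probe sets called). Between High and Control males AGO3 and zuc were lower in High (3.06%), and between Low and Control males AGO3 and tej were lower in Low (3.92%). Signal of tej was 23.1, 4.7, 14.2 and 25.5 in High, 8.1, 4.6, 4.3 and 1.4 in Low and 13.5, 17.3, 35.3 and 14.9 in Control males, all below 75. Its differences were 1.86 for High minus Low (SE 0.45, adjusted p = 0.0267) and -2.27 for Low minus Control (SE 0.45, adjusted p = 0.0118). That of AGO3 was 50, 72.9, 72.0 and 50.6 in High, 61.1, 53.1, 71.9 and 58.8 in Low and 95.7, 91.7, 78.7 and 102.7 in Control males, so that both selected groups lay below the Control group. The differences of AGO3 from Control were -0.60 (SE 0.15, adjusted p = 0.0453) in High and -0.59 (SE 0.15, adjusted p = 0.0425) in Low.

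For krimp the High males had 55.1, 84.2, 42.5 and 13.6 and the Low males 102.1, 78.7, 93.1 and 66.3, which overlapped (-1.05, SE 0.28, adjusted p = 0.0416). For zuc the High males had 7.5, 6.5, 12.7 and 27.6 and the Control males 31.0, 23.7, 26.8 and 41.8, again with overlap (-1.40, SE 0.36, adjusted p = 0.0499). With 50 added to each Signal the calls of tej, AGO3 and zuc were lost and that of krimp held. The call of krimp was lost without 1 array for 18 of the 24 arrays, that of zuc for 21, those of AGO3 for 20 in High and 17 in Low, and those of tej for 4 between High and Low and 3 between Low and Control. In the fit of male arrays alone 0 members were called (limma), with 4, 10 and 7 of 32 at an unadjusted p under 0.05 for High minus Low, High minus Control and Low minus Control. Of all probe sets 4.34%, 2.22% and 2.73% were called in these contrasts.

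The other pathway genes leaned the same way between High and Low females. Of the 22 other piRNA genes, 9 were lower and 1 higher in High than in Low females, with a median of -0.28, where 14.5% of all probe sets were called and 7.9% were lower. In Low minus Control 6 were higher and 0 lower, with a median of 0.32, where 18.7% of all probe sets were called and 8.79% were higher. Of the 32 other germ plasm and oocyte mRNA genes, 5 were lower and 0 higher in High than in Low, with a median of -0.19. Their Low minus Control differences were mixed, with 4 higher and 3 lower. In High minus Control 2 of the 22 were higher and 3 of the 32 lower, where 6.27% of all probe sets were called. None of these genes had a line effect at an adjusted p under 0.001 (limma), with 9 of 22 and 11 of 32 at an unadjusted p under 0.05. The 6 with the smallest p for line were egl, del, thoc5, DCP1, Hel25E and Rbp9. Of these del, the partner of Rhi and Cuff at piRNA clusters, had a High minus Low difference of -0.49 (adjusted p = 0.00413) in females, and thoc5, of the complex that exports piRNA precursors, -0.48 (adjusted p = 0.000261). The small RNA methylase gene Hen1, named after its value was seen, was the 1 higher in High, by 0.30 (adjusted p = 0.0458).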

How the data were processed

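The authors deposited linear Signal intensities for 18769 probe sets of the Affymetrix Drosophila GeneChip 2.0. They had computed Signal with MAS5, which weighs perfect-match against mismatch probes, and brought all arrays to a common scale. A genome build was not given in the sources used. No detection or saturation calls were used. The 24 columns were matched to their samples by name, and each group has 4 arrays per sex, which limits the precision.

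Gene names came from the platform annotation, with nos found under its current symbol. Of all probe sets 13646 had 1 gene symbol and 402 several. A limma model of log2(Signal) with a mean for each line in each sex (12 residual degrees of freedom) covered the 11439 probe sets whose median Signal reached 75, and p-values were adjusted over all of them (Benjamini-Hochberg). Sex, line and interaction were called at an adjusted p under 0.001 and the contrasts of groups under 0.05. The fit was tested on simulated data. A bound on a fold set the male values to 75 before the mean of log2 was taken.

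The members, the pathway and marker lists and the rule for named genes were chosen with earlier results of these data known. Values are given for members called between High and Low or between a selected group and Control, and for the 4 largest and 4 smallest sex differences. The 6 other pathway genes of smallest line p are named, but of these a contrast of groups is given for del and thoc5 alone. The alternatives were other scalings, filters, models and thresholds, other probe sets of a member, the replicate number as a block, and leaving out each array and each line. Some were chosen after seeing the data: the bound on a fold, leaving out a pair of female arrays, and the fit of 1 sex. Models were run with limma 3.58.1 under R 4.3.3. Summaries and plots were made with pandas 2.3.3, NumPy 2.4.6 and matplotlib 3.10.9 under Python 3.11.15.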

Additional observations from a re-analysis of the deposited data

Results flagged for a closer look

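Of 114 groups of 4 arrays examined for 19 genes, 4 held an array far from the other 3, and chance flags about 1 group in 20. In each the gap of that array to its neighbour is given as a share of the group's range of log2(Signal). Among High females 1 array of osk stood at 9327.8 with the others at 8955.3 to 9011.7, a gap of 0.846 within a narrow range. Among Control females 1 array of spn-E stood at 545.5 with the others at 653.3 to 659.3, a gap of 0.952, and the call of spn-E between Low and Control females held without it. Among Control males 1 array of gcl stood at 456.2 with the others at 383.7 to 384.9, a gap of 0.982. Among Low males 1 array of zuc stood at 4.5 with the others at 20.5 to 26.9, a gap of 0.848, all of them below a Signal of 75.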

How the results depend on the processing

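The sex calls (29 of 32 members) were 26 of 29 at a median Signal of at least 150, 31 at an adjusted p under 0.05 and 29 or 30 under the other alternatives. The interaction stayed at 0. For most alternatives the share of all probe sets called is not given here, so the counts below cannot be read against a background. The line effect (0) became 1 (aub) in the factorial analysis of the linear Signal and 7 at an adjusted p under 0.05. Between High and Low females (3) the count was 9 with log2(Signal + 50), 1 with female arrays centred on female-biased probe sets, 1 with line as a random block, 0 with means of line and sex as samples, 16 in the factorial analysis, 0 without the pair of female arrays, 5 with any probe set of a member and 1 at an adjusted p under 0.01. Between High and Control females (2) it was 1 with quantile normalization, 1 with no filter, 0 with the random block, 0 with line means, 5 in the factorial analysis, 1 in the fit of 1 sex and 0 at the stricter threshold. Between Low and Control females (6) it was 16 with log2(Signal + 50), 3 with female-biased centring and 2 with the random block. It was 0 with line means, 21 in the factorial analysis and 2 at the stricter threshold. The fit of 1 sex gave 3 for High minus Low and 6 for Low minus Control. Only 1 and 3 of these were calls of the fit of both sexes.

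Between High and Low males (2) it was 1 with log2(Signal + 50), in the factorial analysis and without the pair of female arrays, and 0 with no filter, with either line setting, in the fit of 1 sex and at the stricter threshold. Between High and Control males (2) it was 1 at a median Signal of at least 150 and in the factorial analysis, and 0 with log2(Signal + 50), median centring, no filter, either line setting, the pair of arrays out, the fit of 1 sex and the stricter threshold. Between Low and Control males (2) it was 1 with median centring, with no filter and without the pair of arrays, and 0 with log2(Signal + 50), either line setting, the factorial analysis, the fit of 1 sex and the stricter threshold. The difference of High and Low between the sexes (0) became 3 in the factorial analysis and 1 with any probe set (pum). The cause of these shifts was not tested.

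With the replicate block the counts were 0 between High and Control males and 1 between Low and Control males, and all other counts were as without it. The replicate numbers share only a number: over 66 pairs of arrays numbered 1, the deviations from line means correlated between -0.257 and 0.256, with a median of -0.0102. Leaving out each array or each line in turn gave 29 to 30 for sex, 0 to 1 for line, 0 for the interaction, and in females 0 to 8 between High and Low, 0 to 3 between High and Control and 0 to 8 between Low and Control. In males it gave 0 to 3, 0 to 2 and 0 to 3, and 0 to 1 for the difference between the sexes. Each call of a member between selection groups, in either sex, was lost without at least 1 line. The calls that held without any single array were lost without High line 2 or Control line 1 (pum, High minus Control), Control line 1 (pum, Low minus Control), High line 1 or Low line 1 (armi, High minus Low) and Low line 2 or Control line 1 (spn-E, Low minus Control).

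With 2 lines per group, calls between groups cannot be told apart from differences between lines. Signals under 75 limit what can be said of males, most of all for the 9 members with every male array below 75. Other members, AGO3 and krimp among them, also had male arrays below that level.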
